A study of Mus musculus with 4 samples.

Results

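The cells described here are cluster 4 of the authors' type Acinar/MucinDuctal, the second most populous of its 3 clusters. They were chosen by the deposited type and cluster labels, and number 928 of the 1955 cells of that type (47.5%) and of the 13362 cells with a deposited type (6.95%). The 2-week mice gave 117 and 152 of them, and the 4-week mice 174 and 485. The other clusters of the type are cluster 3, with 968 cells, and cluster 15, with 59. All 4 mice carried Ptf1aCre-ERTM;ROSAYFP/+ and had been backcrossed into CD-1. Ptf1a, a transcription factor of acinar cells, drove a tamoxifen-dependent Cre that switched on the fluorescent protein EYFP, so that acinar cells were marked before injury. Pancreatitis was then induced at 10 weeks of age with caerulein, a peptide that overstimulates acinar secretion, given 2 times a day on 5 days a week. The design has 2 mice after 2 weeks of caerulein and 2 mice after 4 weeks. Every mouse was labelled and injured, and no uninjured mouse was analysed here. Sorted EYFP-positive cells were profiled by droplet sequencing of transcript 3′ ends, and the comparison of the times bears on what the marked acinar cells become during injury.

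Acinar cells make and package digestive enzymes under a transcription factor complex built around Ptf1a. After injury they can lose that output and take on duct-like features, a change called acinar-to-ductal metaplasia. Some also take on a mucous program known from the stomach, spasmolytic polypeptide-expressing metaplasia (SPEM). It is named for the trefoil peptide Tff2, which mucous neck cells of gastric glands make together with the gel-forming mucin Muc6 and the gastrokine Gkn3.

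The mice differed before any comparison between times, and values by mouse are given in the order 2-week mouse 1, 2-week mouse 2, 4-week mouse 1 and 4-week mouse 2. Cluster 4 held 1554821, 4492170, 1311916 and 2627415 UMIs (unique transcript counts). Its median UMIs per cell were 8353, 22738.5, 2409 and 2581, so the 4-week cells were shallower than the 2-week cells, while Acinar cells of the same libraries had medians of 24008 to 32664.5 and MucinDuctal cells of 15110 to 21810. Of the 928 cells, 556 (59.9%) held under 5000 UMIs, and 436 (47.0%) held exactly 1 EYFP UMI. EYFP stood at 419, 273, 425 and 402 CPM (UMIs per 1000000 UMIs of that class in that mouse). Only 4-week mouse 2 had UMIs of the Y-linked genes Ddx3y (88) and Eif2s3y (102), and it had 1 Xist UMI against 1585, 5171 and 1074 in the others, so sex and mouse cannot be told apart within the 4-week group. The second 2-week mouse stood apart in the mucous program, and the main results that rest on it are given with and without it. Of the cluster's cells, 6 shared a cell barcode with a typed cell of another library. No doublet caller was run and no cell was removed as a doublet. When the 5% of cells with the most UMIs were left out, the enzyme and mucous neck ratios below stayed within 1 SD between mice. That setting cannot show whether doublets are present, as a doublet need not be among those cells.

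**Figure D1:**
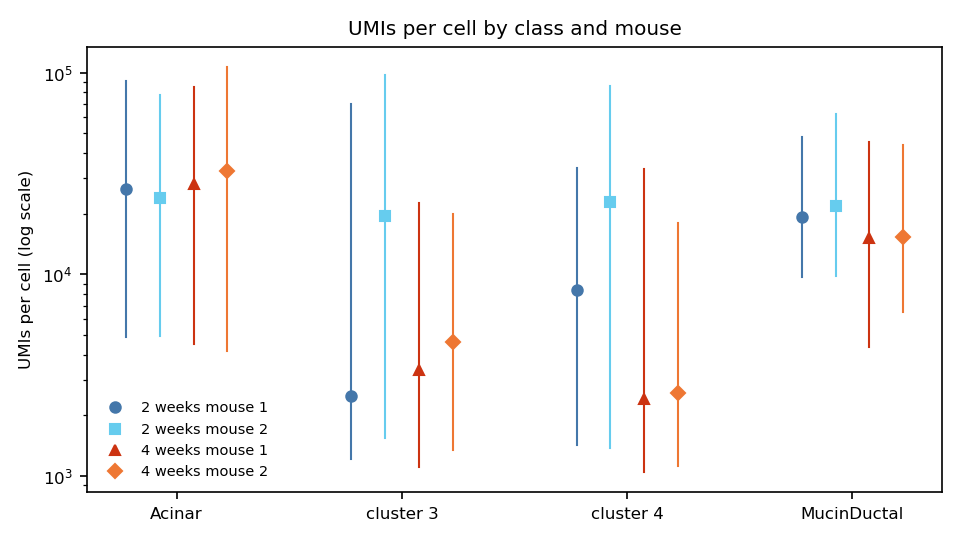
UMIs per cell (y axis, log scale) in Acinar cells, clusters 3 and 4 and MucinDuctal cells of each mouse; symbols are medians and bars run from the 5th to the 95th percentile of cells. The medians of cluster 4 lie at 8353 and 22738.5 in the 2-week mice and at 2409 and 2581 in the 4-week mice.

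Promoters of 2 genes of the mucous neck (SPEM) list and 1 enzyme gene are shown, because cluster 4 carried transcripts of both groups. Each is the 250 bases before the RefSeq start (GRCm38.p6), printed 5′ to 3′ on the gene's strand, with motif matches in capitals. The motifs searched on both strands were TATAAA (the TATA box), CACCTG (an E-box form, read as CAGGTG on the other strand) and TTTCCC (read as GGGAAA), a core recognised by Rbpj family proteins, the partners of Ptf1a. The Gkn3 window is chr6:87388936-87389185 (minus strand), that of Pgc, which encodes the stomach protease precursor progastricsin, is chr17:47726592-47726841 (plus strand), and that of Cela2a, an elastase gene, is chr4:141826006-141826255 (minus strand).
Gkn3: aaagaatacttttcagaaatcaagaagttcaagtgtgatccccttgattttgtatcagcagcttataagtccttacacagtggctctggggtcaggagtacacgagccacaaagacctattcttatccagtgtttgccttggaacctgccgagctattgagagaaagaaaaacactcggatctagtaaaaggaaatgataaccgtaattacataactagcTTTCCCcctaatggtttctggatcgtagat
Pgc: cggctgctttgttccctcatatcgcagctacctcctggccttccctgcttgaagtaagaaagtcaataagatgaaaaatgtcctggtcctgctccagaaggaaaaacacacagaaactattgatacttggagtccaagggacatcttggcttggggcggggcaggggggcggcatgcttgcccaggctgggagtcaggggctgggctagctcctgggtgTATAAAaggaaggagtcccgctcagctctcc
Cela2a: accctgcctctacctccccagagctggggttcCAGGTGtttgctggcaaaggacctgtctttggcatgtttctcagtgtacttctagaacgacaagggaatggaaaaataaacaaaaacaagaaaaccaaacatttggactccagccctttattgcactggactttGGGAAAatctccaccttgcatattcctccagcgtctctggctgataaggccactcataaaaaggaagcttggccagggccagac
Counted from the start, the match in Gkn3 begins at position -30, that in Pgc at -31, and those in Cela2a at -218 and -84. CACCTG was found in 14 of 23 enzyme promoters (60.9%), in 2 of 9 mucous neck promoters, both of them Wfdc2 entries, and in 17.2% of all 32851 promoters. TTTCCC was found in 8 of 23 enzyme promoters (34.8%), in 3 of 9 mucous neck promoters (33.3%) and in 21.9% of all. TATAAA was found in 9 of 23 (39.1%), 1 of 9 (11.1%) and 12.4%. Several enzyme genes are near copies of each other, so their promoters share sequence, and a match describes letters only.

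Cluster 4 carried digestive enzyme transcripts at a level between those of Acinar and MucinDuctal cells. Its 27 measured enzyme genes together took 102558, 115421, 121414 and 154593 CPM. Acinar cells held 488005 to 578218 CPM and MucinDuctal cells 14120 to 30820 CPM, so the 3 classes did not overlap in any mouse. Within each mouse the list was lower than in Acinar cells by a mean of 2.14 ± 0.19 on the log2 scale (SD, n = 4 mice) and higher than in MucinDuctal cells by 2.35 ± 0.60. Beside cluster 3, at 347438 to 370889 CPM, it was lower by 1.57 ± 0.25. In CPM, on the straight line from the Acinar to the MucinDuctal level of the same mouse, cluster 4 lay at 80.9% ± 4.01 of the distance. The range was 76.5% to 85.1%. This position depends on the scale, as the log2 distances of 2.14 and 2.35 were similar. Lymphocytes of the same libraries were chosen by T and B cell markers among cells with no deposited type. They held 33048, 10813, 15757 and 26589 CPM of enzyme transcripts. Their median UMIs per cell were 4108, 3876.5, 3779 and 3148, against 8353, 22738.5, 2409 and 2581 in cluster 4, so depth was not matched within mice. Cluster 4 was above the lymphocyte level in every mouse, whereas the MucinDuctal range overlapped it. Whether enzyme UMIs of either class came from free RNA or from doublets was not tested. The clusters were made from these counts, so comparisons between classes are descriptions, with no test.

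The single enzymes followed the list. Ctrb1, a chymotrypsinogen (chr8:111686519-111691010, minus strand, in the GENCODE vM21 annotation of GRCm38, the source of all gene positions here), stood at 41348, 62934, 47816 and 63095 CPM. In Acinar cells it was at 185743 to 246866 CPM and in MucinDuctal cells at 6808 to 11294 CPM, so every cluster 4 value fell between them, lower than Acinar by 2.11 ± 0.20 and higher than MucinDuctal by 2.54 ± 0.45 on the log2 scale. Clps, the colipase that anchors pancreatic lipase, stood at 18488, 21971, 28310 and 22491 CPM, lower than Acinar by 1.36 ± 0.14. Of the enzyme genes at 50 CPM or more, 25 of 25 were lower than Acinar in 4 of 4 mice, beside 4.04% of 2255 genes, and 24 of 24 were higher than MucinDuctal in 4 of 4 mice, beside 4.55% of 2526 genes. Beside cluster 3, 25 of 25 were lower, beside 4.70% of 2278 genes. The enzymes take a large part of each total, so these shares were also taken with enzyme UMIs left out of the total, which made them 18.4%, 12.9% and 19.1% with the enzyme counts as before. Among genes at 50 CPM or more, the 10 lowest beside Acinar included the trypsin genes Prss2 (median log2 ratio -2.93), Try5 (-2.90) and Try4 (-2.86), the elastase Cela2a (-2.86) and Gm2663 (-2.90), and trypsin genes are near-identical copies whose reads can be split wrongly. The highest beside MucinDuctal were Cpa1, a carboxypeptidase (4.39), Pnliprp1, a lipase-related protein (4.27), and Spink1, the trypsin inhibitor (4.24).

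Acinar transcription factors and other secreted proteins were mostly lower than in Acinar cells but present. Of the 6 factors at 50 CPM or more, 4 were lower and 2 higher than Acinar in 4 of 4 mice, beside 4.04% and 91.4% of all genes, and with enzymes left out of the total 4 were lower and 0 higher, beside 18.4% and 55.3%. Ptf1a stood at 21.9, 24.3, 4.57 and 13.7 CPM, lower than Acinar by 1.96 ± 0.68 on the log2 scale and higher than MucinDuctal by 2.50 ± 0.63. Its partner Rbpjl stood at 102, 102, 67.8 and 96.7 CPM, lower than Acinar by 0.76 ± 0.31 and higher than MucinDuctal by 2.57 ± 0.43. Both genes were thus between the Acinar and MucinDuctal levels in every mouse. Bhlha15 (Mist1), which scales the secretory apparatus, was lower than Acinar by 0.70 ± 0.32 and higher than MucinDuctal by 0.78 ± 0.43. The median log2 ratio over all genes beside Acinar was 1.27, and 0.35 with enzymes left out of the total. The size of the drops of Ptf1a, Rbpjl and Bhlha15 therefore depends on the scaling. The other 2 factors were Xbp1, a regulator of secretory capacity, at 499, 355, 395 and 405 CPM, and Gata4, at 55.3, 48.3, 51.8 and 48.3 CPM. Their log2 ratios beside Acinar, 1.10 ± 0.49 and 1.16 ± 0.40, were under the median of 1.27 over all genes and depend on the scaling, so no direction is given for them. The Reg family of secreted injury proteins took 21343, 33144, 17801 and 23682 CPM against 67704 to 93430 CPM in Acinar cells. Its 5 genes at 50 CPM or more were lower than Acinar in 4 of 4 mice, beside 4.04% of all genes (18.4% with enzymes left out of the total, where all 5 were again lower), and Reg2 was among the lowest of all genes beside both Acinar (-2.86) and cluster 3 (-2.50). Zymogen granule proteins were lower than Acinar for 10 of 10 genes, beside 4.04% of all genes, and higher than MucinDuctal for 9 of 10, beside 4.55%, with the same 10 and 9 when enzymes were left out of the total, beside 18.4% and 12.9%.

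**Figure D2:**
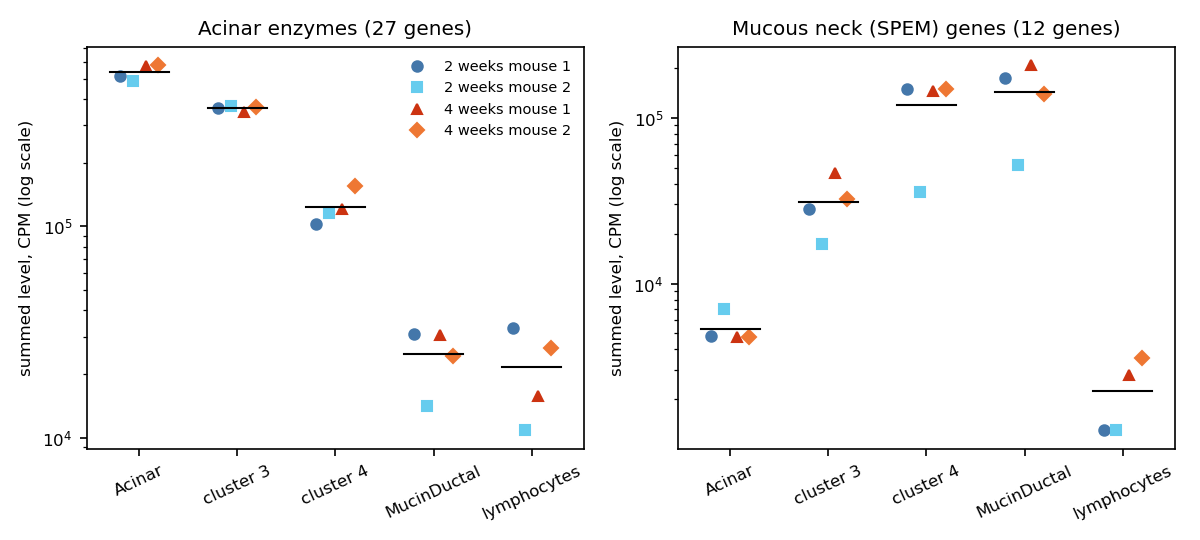
Summed levels (y axis, CPM, log scale) of the 27 enzyme genes and the 12 mucous neck genes in Acinar cells, cluster 3, cluster 4, MucinDuctal cells and lymphocytes; each point is 1 of 4 mice and lines are means. Cluster 4 holds 102558 to 154593 CPM of enzymes and 35724 to 149749 CPM of mucous neck genes, the lowest of the latter in 2-week mouse 2.

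The mucous neck program stood far above its Acinar level and within the spread of mice of its MucinDuctal level on the log2 scale. The 12 genes of the list took 149749, 35724, 144990 and 149317 CPM in cluster 4, against 4762 to 7011 CPM in Acinar cells and 174933, 52121, 207691 and 138710 CPM in MucinDuctal cells. Not all 12 are mucous products. The list includes Pgc, a protease precursor at 59269, 799, 43004 and 34569 CPM in cluster 4, and Cblif, gastric intrinsic factor. The low list value of 2-week mouse 2 was shared by its MucinDuctal cells. The list was higher than in Acinar cells of the same mouse by 4.30 ± 1.30 on the log2 scale, or 4.95 without 2-week mouse 2, and higher than in cluster 3 by 1.82 ± 0.61, or 2.08 without that mouse. Beside MucinDuctal cells it differed by -0.30 ± 0.30 and was higher in 1 of 4 mice, so the mean difference was no larger than 1 SD between mice. On the straight line in CPM used for the enzymes, the list lay at 81.5% ± 19.9 of the distance from Acinar to MucinDuctal. The range of 63.7% to 107.9% includes the mean position of the enzymes. On the log2 scale the list was much nearer to MucinDuctal (-0.30) than to Acinar (4.30), unlike the enzymes. The programs are therefore not ordered by this position. Lymphocytes held 1297 to 3572 CPM of the list. One of its genes, the mucin Muc5b, was at 0 in the cluster.

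The mucous neck markers Muc6, Tff2 and Gkn3 were all present. Muc6 (chr7:141633456-141655319, minus strand) stood at 4389, 1405, 4889 and 4617 CPM, against 28.1 to 101 CPM in Acinar cells, a mean ratio of 58.4-fold, or 94.4-fold without 2-week mouse 2. Tff2 (chr17:31141049-31144282, minus strand) stood at 25658, 7490, 40274 and 60416 CPM, against 1554 to 2311 CPM in Acinar cells. Gkn3 (chr6:87383256-87388935, minus strand) stood at 44563, 13069, 44679 and 39048 CPM, against 361 to 964 CPM in Acinar cells. Every cluster 4 value of the 3 genes was above every Acinar value, and 2-week mouse 2 was the lowest for each. Beside MucinDuctal the log2 ratios were -0.23 ± 0.32 for Muc6, -0.25 ± 0.66 for Tff2 and -0.45 ± 0.09 for Gkn3, the last lower in 4 of 4 mice. Without 2-week mouse 2 the ratios beside Acinar were 21.4-fold for Tff2 and 95.4-fold for Gkn3, against 13.3-fold and 58.6-fold with it. Pgc stood at 59269, 799, 43004 and 34569 CPM, with 1252 CPM in the MucinDuctal cells of 2-week mouse 2 against 30113 to 66986 CPM in those of the other mice. The drop in that mouse was therefore larger for Pgc than for Muc6, in both classes.

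Of the mucous neck genes at 50 CPM or more, 10 of 11 were higher than Acinar in 4 of 4 mice, beside 91.4% of all genes. Their size differed more than their count: the list's median log2 ratio was 5.30, against 1.27 over all genes. With enzymes left out of the total, 9 of 11 were higher, beside 55.3% of genes, and the medians were 4.45 and 0.35. Dmbt1, a mucosal glycoprotein, was the gene not higher in every mouse (0.36 ± 0.42). Beside MucinDuctal 6 of 11 were lower in 4 of 4 mice, beside 51.0% of genes, and 4 of 11 beside 18.6% with enzymes left out. Beside cluster 3, 9 of 11 were higher, beside 77.8% of genes, or 32.4% with enzymes left out and again 9 of 11.

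Genes that build and secrete mucins went with the mucous neck genes. A4gnt, which caps gastric gland mucins with N-acetylglucosamine, stood at 152, 18.7, 142 and 127 CPM, against 0.559 to 1.29 CPM in Acinar cells. Gcnt3, a branching enzyme of mucin sugars, stood at 215, 58.5, 131 and 197 CPM. Again 2-week mouse 2 was lowest, as in MucinDuctal cells, where A4gnt was 32.1 CPM. All 10 helper genes at 50 CPM or more were higher than both Acinar and cluster 3 in 4 of 4 mice, beside 91.4% and 77.8% of all genes (55.3% and 32.4% with enzymes left out of the total, where all 10 were again higher). Their median log2 ratios were 3.64 and 1.64 against 1.27 and 0.51 over all genes. Beside MucinDuctal 10 of 11 were lower, beside 51.0% of genes, but 3 of 11, beside 18.6%, with enzymes left out, so that count follows the scaling. Agr2, a disulfide isomerase needed for mucin folding, was lower than MucinDuctal by 0.63 ± 0.27. The list of gastric pit (surface mucous) genes took 290, 324, 325 and 304 CPM, higher than Acinar by 3.16 ± 0.72 and lower than MucinDuctal by 0.68 ± 0.22. Its 3 genes at 50 CPM or more, Vsig1 (68.3 to 104 CPM), Sult1c2 (90.7 to 125 CPM) and Anxa10 (68.1 to 80.0 CPM), were higher than Acinar and cluster 3 in 4 of 4 mice, as were 91.4% and 77.8% of all genes. With enzymes left out of the total, 2 of the 3 were higher than Acinar and 3 of the 3 higher than cluster 3, beside 55.3% and 32.4%. Beside MucinDuctal 3 of 4 pit genes were lower under either total, beside 51.0% and 18.6% of genes. The surface mucin Muc5ac was at 7.72, 0.668, 0 and 0 CPM, and the trefoil peptide Tff1 was lower than in MucinDuctal cells in every mouse (median log2 ratio -1.34).

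The duct list was at an intermediate level in CPM over all UMIs, as were the means of 90.5% of 2547 genes. The duct list took 9462, 10861, 8535 and 7301 CPM, between 809 to 2029 CPM in Acinar and 12673 to 17487 CPM in MucinDuctal cells. In CPM it lay at 59.5% ± 5.78 of the distance. On the log2 scale it was higher than Acinar by 2.85 ± 0.43 and lower than MucinDuctal by 0.67 ± 0.11. Sox9, a transcription factor of duct cells, stood at 613, 476, 597 and 542 CPM, higher than Acinar by 3.62 ± 0.94 and close to MucinDuctal (-0.19 ± 0.11). Spp1, the secreted phosphoprotein osteopontin, stood at 5587, 5074, 4266 and 2711 CPM, lower than MucinDuctal by 0.90 ± 0.20. The keratin Krt19 stood at 111, 535, 213 and 276 CPM, lower than MucinDuctal by 0.87 ± 0.47. All 3 genes were lower than MucinDuctal in 4 of 4 mice, as were 51.0% of all genes. The median log2 ratio over all genes was -0.18, near that of Sox9, so no direction is given for Sox9. Beside Acinar, 11 of 12 duct genes at 50 CPM or more were higher in 4 of 4 mice, beside 91.4% of all genes. With enzymes left out of the total 8 were higher, beside 55.3%, and 1 lower, beside 18.4%. Beside MucinDuctal, of 14 duct genes at 50 CPM or more, 11 were lower and 1 higher in 4 of 4 mice. All genes gave 51.0% and 4.55%. With enzymes left out of the total 6 were lower and 1 higher, beside 18.6% and 12.9%. Genes of protein folding in the endoplasmic reticulum were higher than Acinar by 0.56 as a list, but lower by 0.37 once enzymes were left out of the total, so no direction is given for them.

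**Figure D3:**
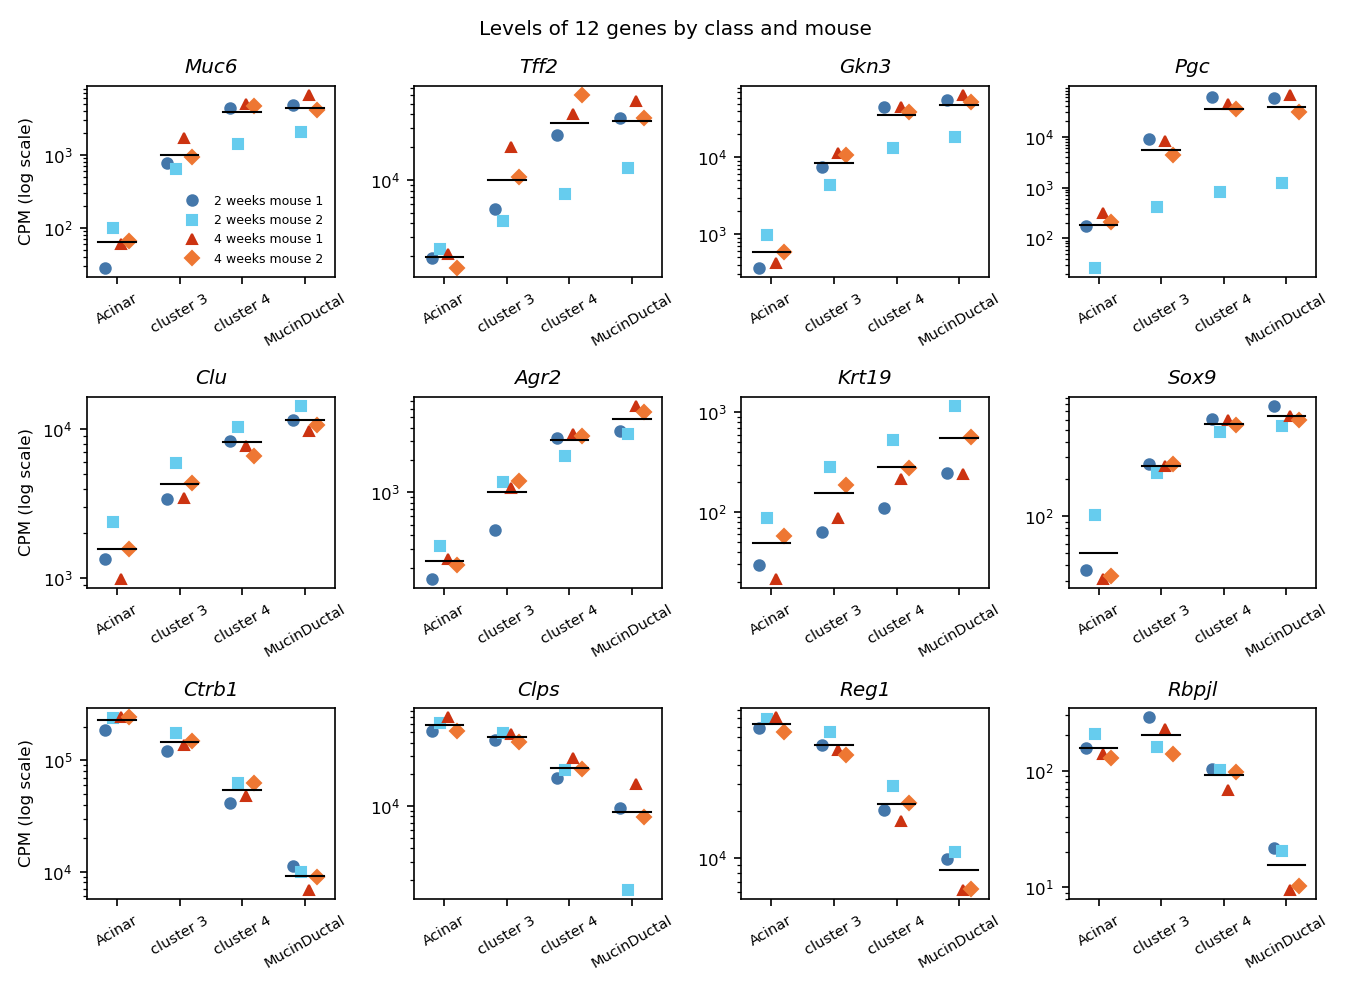
Levels (y axes, CPM, log scale) of single mucous, duct and acinar genes in Acinar cells, cluster 3, cluster 4 and MucinDuctal cells; each point is 1 of 4 mice and lines are means. Ctrb1 in cluster 4 lies between 41348 and 63095 CPM, and Muc6 lies at 4389 to 4889 CPM in 3 mice and at 1405 CPM in 2-week mouse 2.

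Most genes of cluster 4 lay between the Acinar and MucinDuctal levels in CPM over all UMIs. Of 2547 genes at 50 CPM or more, 1351 (53.0%) were between them in 4 of 4 mice and the means of 2306 (90.5%) were between. In 4 of 4 mice 38 genes were above both classes and 0 were below both. This count was chosen after the values were seen and was not taken with enzymes left out of the total. It depends on the scaling, as enzymes took a mean of 538482 CPM in Acinar, 123497 in cluster 4 and 24999 in MucinDuctal cells. With enzymes left out, 55.3% rather than 91.4% of genes were higher than Acinar in 4 of 4 mice. Lower than MucinDuctal were 18.6% rather than 51.0%. Beside Acinar cells the genes of highest median log2 ratio were Pgc (7.21), the carbonic anhydrase Car2 (6.44), Gkn3 (6.39), Gcnt3 (6.38) and Muc6 (6.22). Beside MucinDuctal cells the lowest was Cym, a milk-clotting stomach protease (-2.31), and beside cluster 3 the 4 highest were Pgc (2.55), 2210407C18Rik (2.34), Rbp2, a retinol-binding protein (2.28), and Kcne3, a potassium channel subunit (2.26). Across genes, the cluster's log profile correlated with MucinDuctal cells at r = 0.949, 0.905, 0.915 and 0.887, with cluster 3 at 0.859, 0.938, 0.894 and 0.942, and with Acinar cells at 0.769, 0.847, 0.793 and 0.817. The nearest class was MucinDuctal in 2 mice and cluster 3 in 2 mice. Genes are not independent, and depth and free RNA are shared within a library. Proliferation genes were lower than in cluster 3, by 1.20 ± 0.59 on the log2 scale for the list. Beside Acinar (0.82 ± 0.77, under the all-gene median of 1.27) and MucinDuctal (0.26 ± 0.44) the 4 mice did not share a sign, so no direction is given. Mki67, a marker of dividing cells, stood at 10.9, 16.5, 10.7 and 14.1 CPM, lower than cluster 3 by 1.78 ± 0.78, and the 4 genes of that list at 50 CPM or more were all lower than cluster 3 in 4 of 4 mice, beside 4.70% of all genes, and again with enzymes left out of the total, beside 19.1%.

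Both programs were also seen under single cell barcodes, among which doublets were not looked for here. To compare cells of unequal depth, each was thinned to 1500 UMIs, which kept 110, 140, 132 and 389 cells of cluster 4 and left out 157. Median enzyme UMIs per thinned cell were then 121.5, 131.5, 153 and 225 in cluster 4, against 687 to 834 in Acinar, 9 to 35 in MucinDuctal cells and 14 to 48 in lymphocytes. Median mucous neck UMIs were 207, 41, 172.5 and 146, against 7 to 10 in Acinar cells and 2 to 5 in lymphocytes. A cell was counted as holding both programs when its enzyme UMIs passed the 95th percentile of lymphocytes of its library and its mucous neck UMIs passed that of Acinar cells. That held for 36.4% (95% exact interval 27.4 to 46.1), 70.7% (62.4 to 78.1), 78.0% (70.0 to 84.8) and 75.6% (71.0 to 79.8) of cluster 4 cells, and intervals here cover counting error only. The first mouse was lowest, and its enzyme limit was the highest, at 155.8 UMIs against 40.4 to 113.85. In cluster 3 the shares were 79.9%, 46.5%, 89.3% and 89.0%, in MucinDuctal 2.16% to 13.6%, in Acinar 3.67% to 4.89% and in lymphocytes 0% to 2.94%. The last 2 classes set the limits and can pass both in only about 5% of cells by construction, so they are no contrast to cluster 4. Over all 928 cells before thinning, enzymes took a median of 11.2% of a cell's UMIs and mucous neck genes 8.59%. Cells under 5000 UMIs held 64980 to 143498 CPM of enzymes and deeper cells 102715 to 159091 CPM.

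**Figure D4:**
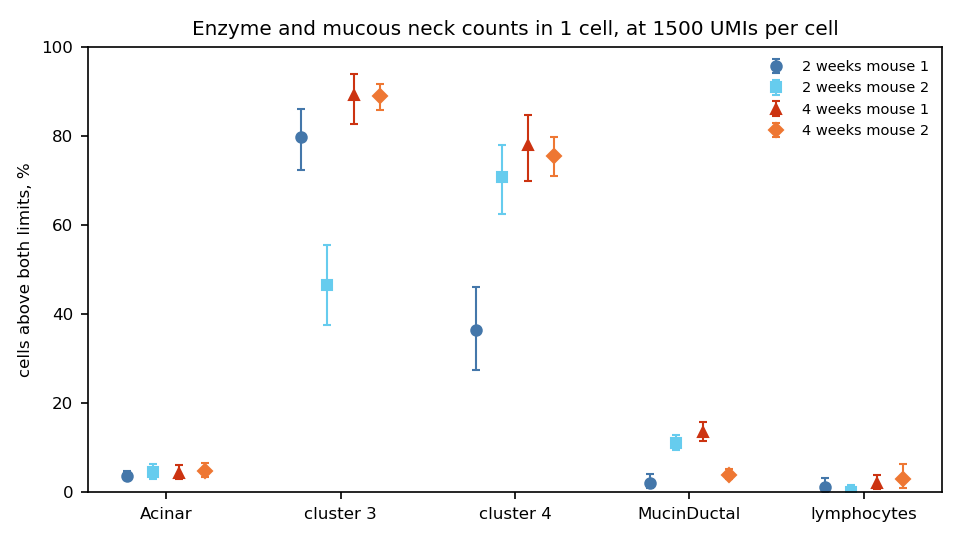
Share of cells (y axis, %) above both the enzyme and the mucous neck limit after thinning to 1500 UMIs, by class and mouse; bars are 95% exact binomial intervals. In cluster 4, 36.4%, 70.7%, 78.0% and 75.6% of cells pass both limits in the 4 mice.

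Some cluster 4 cells gave at least 1% of their UMIs to enteroendocrine markers. At least 1 UMI of an enteroendocrine marker was found in 732 of the 928 cells (78.9%), but also in 57.9% of lymphocytes, so a single UMI is not read as expression. Ghrl, which encodes the stomach hormone ghrelin, stood at 4437, 195, 1498 and 2442 CPM and was higher than in both Acinar and MucinDuctal cells in 4 of 4 mice, where the nearer class held 311, 91.1, 114 and 57.2 CPM. In 2-week mouse 1 a single cell held 6520 of the 6899 Ghrl UMIs, 40.4% of the cluster's Ghrl UMIs, and without it the level there was 264 CPM, under the 311 CPM of the nearer class. Cluster 3 held 761, 56.8, 9481 and 214 CPM, so the 2 clusters had no constant order. Of the Ghrl UMIs of cluster 4, 94.5% were in the 98 cells (10.6%) past that limit, a share that the choice of cells by these markers raises. Those cells numbered 2, 18, 29 and 49 by mouse and had a median of 1981.5 UMIs. Ghrl led in 57 of them and Sst, which encodes somatostatin, in 39, all 39 of them from the 4-week mice. The same limit was passed by 84 of 968 cells of cluster 3, 6 of 3983 MucinDuctal cells, 16 of 3698 Acinar cells and 1 of 1132 lymphocytes. In 1 cell of 2-week mouse 2, 72.3% of 55622 UMIs were B cell markers, and it accounts for most of the 8968 CPM of that list in that mouse, which is 20.5 CPM without it. Neutrophil markers were at 0 to 0.762 CPM and red cell markers at 0 to 0.761 CPM, with S100a8, Retnlg, Ly6g, Cd4, Cd8a, Cldn5, Hba-a1, Hba-a2 and Hbb-bs at 0. Tuft markers took 127, 606, 61.0 and 526 CPM, against 14115 to 15487 CPM in the authors' Tuft cells.

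Of all typed cells, the cluster made up 3.92%, 4.23%, 6.18% and 12.2% by mouse. Both 4-week mice were above both 2-week mice, with means of 4.08% ± 0.22 and 9.19% ± 4.26 (SD, n = 2). The difference of 5.12 percentage points had a 2-sided exact permutation p of 0.33, which is the smallest that 2 mice against 2 can give, so no p below 0.05 was possible. As a share of the Acinar/MucinDuctal cells it was 38.9%, 51.9%, 49.9% and 47.9%, which overlapped between times (exact permutation p = 1). Counting only cells with at least 2 EYFP UMIs, the shares were 3.37%, 3.48%, 3.69% and 6.54%. Cells were sorted, so these are shares of sorted and typed cells. The permutation p takes the mouse as the unit and rests on how the 4 values divide between the times.

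Between 2 and 4 weeks no gene of cluster 4 passed the test across all genes. edgeR's quasi-likelihood test on UMIs summed by mouse called 0 of 9895 genes at a Benjamini-Hochberg adjusted p under 0.05 (percent called 0), with 387 (3.91%) at an unadjusted p under 0.05. DESeq2 called 6 of 17353 (0.0346%), higher for Lyz2, 4930481A15Rik, C1qb, Sst and Pate4 and lower for Hspa1a, a heat shock protein. The count by edgeR was 220 without 2-week mouse 1, 73 without 2-week mouse 2, and 0 without either of the 4-week mice in turn. Each of these fits has 1 mouse in 1 group, which is assumed to vary like the 2 mice of the other. It was 83 with no filter on low counts, 1 with cells thinned to 1500 UMIs (Sst), 2 without the immunoglobulin-rich cell (4930481A15Rik and C1qb) and 2 without hormone-bearing cells (Lyz2 and 4930481A15Rik). The smallest adjusted p by edgeR was 0.0475 and 0.04 in the last pair of fits, which were chosen after seeing the data. So was a fit on only the cells with at least 5000 UMIs, where edgeR called 0 of 9313 genes (smallest adjusted p 0.1625). The count was also 0 with the robust option off, with only cells of at least 2 EYFP UMIs, and with enzymes left out of the library size.

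The genes of smallest p by edgeR with all cells and mice, none of them past its threshold in that fit, are given as values, and DESeq2 called the first 3. C1qb, a complement subunit made by macrophages, stood at 5.15, 5.57, 29.7 and 33.9 CPM, a log2 difference of 2.71 ± 0.29 (SE; edgeR adjusted p = 0.0517). Lyz2, a lysozyme of myeloid cells, stood at 8.36, 16.3, 65.6 and 76.1 CPM (2.59 ± 0.30; edgeR adjusted p = 0.0887). The noncoding transcript 4930481A15Rik stood at 1.93, 1.11, 20.6 and 20.2 CPM (4.02 ± 0.42; edgeR adjusted p = 0.0517). Genes whose mice overlapped between times were not eligible to be named here, so the separation of the mice is part of the choice. Over the alternatives their adjusted p ran from 1.81e-19 to 1.00. The next were Ccdc152 (2.30 ± 0.37) and C1qa (1.90 ± 0.31), each with an edgeR adjusted p of 0.307, and C1qa turned to -0.26 with cells thinned to 1500 UMIs. In the other direction, Phlda1 stood at 121, 114, 41.2 and 42.6 CPM (-1.32 ± 0.18; edgeR adjusted p = 0.187), and Itln1, an intelectin, at 70.7, 54.5, 24.4 and 20.2 CPM (-1.33 ± 0.23; edgeR adjusted p = 0.368). Ankrd10, Snhg12 and Slfn9 followed at -1.06, -0.89 and -1.57, with adjusted p of 0.825 or more by edgeR.

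Markers of macrophages and B cells were looked at beside these genes. In the main edgeR fit, with all cells and mice and low counts filtered, 0 genes of either list were called. The macrophage genes C1qb and Lyz2 were called in some of the other fits above. The macrophage list took 31.5, 55.7, 184 and 209 CPM in cluster 4, and 115, 116, 395 and 371 CPM in cluster 3, but 25.4, 31.8, 14.4 and 12.6 CPM in Acinar cells. Of its 11 genes 8 were tested, 7 had an unadjusted p under 0.05, and all 8 were higher in both 4-week mice, which held for 7.45% of all genes in CPM and for 16.7% after edgeR's TMM scaling. A gene low at 2 weeks could pass the low-count filter through the 4-week mice alone, so this count is partly set by the filter. Examples are Fcer1g (1.29, 3.12, 17.5 and 13.7 CPM) and Ptprc (0.643, 2.45, 5.34 and 7.99 CPM). Mrc1 (0.643, 1.78, 1.52 and 1.14 CPM) and Adgre1 (0, 1.34, 0.762 and 0.381 CPM) overlapped between times. Depth also differed between the times: in cells under 5000 UMIs the list stood at 60.6, 664, 602 and 325 CPM, where the times overlapped, and in deeper cells, the immunoglobulin-rich cell left out, at 29.2, 39.2, 89.0 and 163 CPM, where they did not. B cell markers, the immunoglobulin-rich cell left out, stood at 37.3, 20.5, 142 and 124 CPM in cluster 4, and at 93.7, 30.9, 707 and 70.8 CPM in cluster 3, where the times overlapped. Their order turned with depth: in cluster 4 cells under 5000 UMIs they stood at 104, 183, 81.8 and 65.98 CPM, lower in both 4-week mice, and in deeper cells at 32.0, 15.99, 155 and 148 CPM, higher in both. With that cell in, the list stood at 8968 CPM in 2-week mouse 2 and the times overlapped. Of 5 tested B cell genes 3 had an unadjusted p under 0.05, all 3 higher at 4 weeks, and the median log2 difference was 2.09. The filter partly sets this direction too. Cd79a (1.93, 3.34, 11.4 and 17.5 CPM), Cd79b (1.29, 2.23, 6.10 and 8.37 CPM) and Ms4a1 (0.643, 0.445, 6.10 and 7.61 CPM) were low in both 2-week mice. The part of macrophage or B cell RNA, or of depth, in the differences of C1qa, C1qb and Lyz2 was not tested.

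The programs of the cluster itself showed no call over time in the main edgeR fit, with all cells and mice and low counts filtered. Of the 26 enzyme genes tested 0 were called, 3 had an unadjusted p under 0.05, and the median log2 difference was 0.59 against -0.01 over all genes. Both 4-week mice were above both 2-week mice for 9 of the 26 in CPM, beside 7.45% of all genes, and for 15 after TMM scaling, beside 16.7%, and below for 0. Of the 11 mucous neck genes tested 0 were called and the median was 0.27. Tff2 had a log2 difference of 1.78 ± 0.67 (edgeR adjusted p = 0.995) with both 4-week mice above both 2-week mice, and Gkn3 of 0.70 ± 0.63 with overlapping groups. Without the low 2-week mouse 2 these were 1.16 for Tff2 (edgeR adjusted p = 0.25) and 0.08 for Gkn3 (adjusted p = 0.948). That fit leaves 1 mouse at 2 weeks, which is assumed to vary like the 4-week mice. In that fit Wfdc2, a secreted protease inhibitor, had a log2 difference of 0.99 and Cblif, gastric intrinsic factor, of -1.02. With all 4 mice these were 0.27 and -0.07. The times then overlapped for both Wfdc2 (72.7, 161, 126 and 129 CPM) and Cblif (6121, 144, 3081 and 2282 CPM). Reg genes had a median of -0.86 over 6 tested and immediate early genes, the fast stress and growth response, of -0.38 over 17, with 0 called in each. Both 4-week mice were below both 2-week mice for 3 of the 6 Reg genes and, in CPM, for 6 of the 17 immediate early genes, beside 31.2% of all genes (17.3% after TMM scaling, with 3 and 4 genes). Sst stood at 19.3, 67.9, 485 and 605 CPM (3.75 ± 0.69; edgeR adjusted p = 0.995), and 63.9% of its UMIs were in the hormone-bearing cells. It was called by DESeq2 (adjusted p = 0.0248) and by edgeR with cells thinned to 1500 UMIs (adjusted p = 0.00181).

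**Figure D5:**
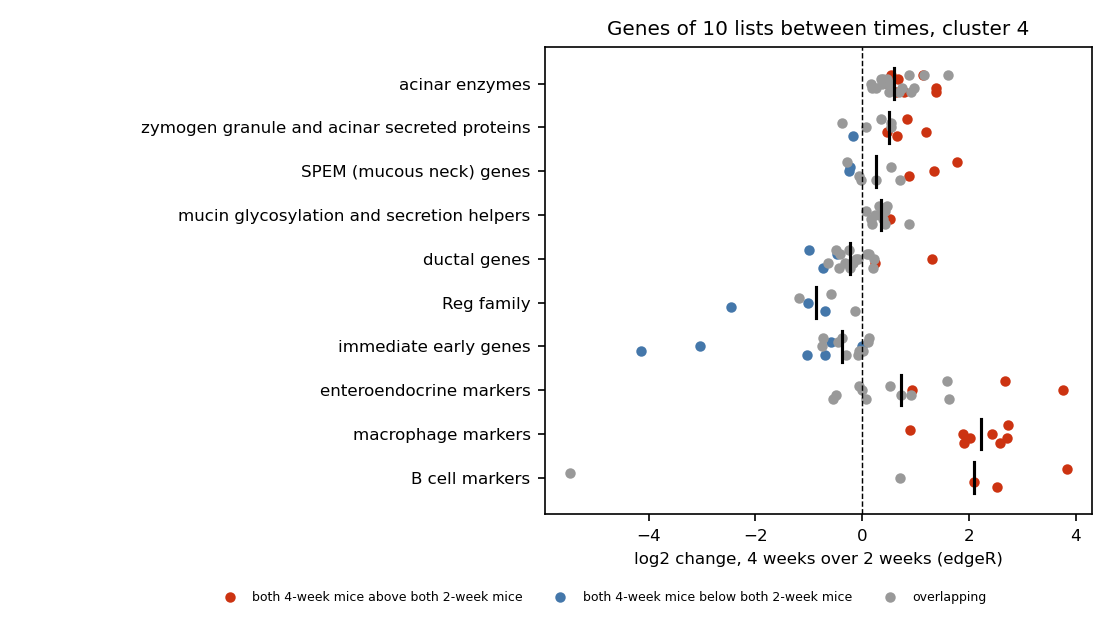
Fitted log2 difference between 4 and 2 weeks (x axis) for each tested gene of 10 lists in cluster 4, with black marks at list medians and colours showing whether the mice of the 2 times overlap in CPM. Macrophage markers have a median of 2.22, enzymes of 0.59 and mucous neck genes of 0.27. Genes of low counts could pass the filter through the mice of 1 time alone. No gene passed the threshold in this edgeR fit, with all cells and mice and low counts filtered.

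Whether time acted differently in cluster 4 than in cluster 3 was tested with an interaction term and the mouse as a block. edgeR called 0 of 10591 genes (percent called 0), with 335 (3.16%) at an unadjusted p under 0.05, and DESeq2 called 0 of 18523, with 71 at an unadjusted p under 0.05. Leaving out 1 mouse gave 73, 30, 14 and 8 calls by edgeR in the order of mice, again with 1 mouse left in a group, and no filter gave 29. The genes of smallest p were Meg3, a noncoding RNA (-1.47 ± 0.23; edgeR adjusted p = 0.252), Gng13, a G protein subunit of tuft and taste cells (-1.92 ± 0.33; adjusted p = 0.252), and Alox5ap, which supplies the leukotriene pathway (-1.79 ± 0.32; adjusted p = 0.268). In the other direction were 1810009J06Rik (1.38 ± 0.27), Igfbp5, a binding protein of insulin-like growth factors (1.31 ± 0.26), both with an edgeR adjusted p of 0.325, and Hsd17b13 (1.76 ± 0.35; adjusted p = 0.402).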

How the data were processed

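Per the labels, sorted EYFP-positive pancreas cells of 4 mice were sequenced with droplet libraries, 1 per mouse. The authors deposited UMI count tables of 32288 genes for 21140 cells, with a type and cluster label for 13362 of them; Cell Ranger 4.0.0, Seurat 3.2.3 and the mm10 build are named per the submitters' processing notes, and other steps are not given in the sources used here. The deposited counts were used as given, and the cluster and type labels were not rebuilt. UMIs were summed by mouse and class. Within-mouse log2 ratios used CPM plus 1. Differences over time were tested with edgeR 4.0.16 (TMM, filterByExpr, robust quasi-likelihood fit, Benjamini-Hochberg adjustment at 0.05), with DESeq2 1.42.0 as an alternative. In counts simulated with 1 dispersion for all genes, edgeR recovered 186 of 200 genes changed 4-fold over time, with 11 false calls. The spread of the real mice differs by gene, so this does not give the power of the test here. Shares were compared with an exact permutation test over mice (scipy 1.17.1). Single-cell shares used cells thinned to 1500 UMIs. Totals of cluster 4 were 1311916 to 4492170 UMIs per mouse, and its fewest cells were 117, which limits precision for low genes. Lymphocytes were untyped cells with at least 3 UMIs of T or B cell markers and none of Krt8 or Krt18. Named genes are those of the gene lists, up to 10 genes called in each direction over time or, where under 5 were called, the 5 of smallest p (3 for the interaction), all averaging 10 CPM or more with no overlap of the mice, the 10 of highest mean CPM, and the 10 highest and lowest median ratios beside each class among genes at 50 CPM or more with 1 sign in all mice. The members and lists were chosen with earlier results of these data known.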

Additional observations from a re-analysis of the deposited data

Results flagged for a closer look

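The tuft marker list was higher in cluster 4 than in cluster 3 in both 2-week mice, by 0.30 and 1.31 on the log2 scale, and lower in both 4-week mice, by values of -1.19 and -0.40. It was singled out because every mouse of 1 time lay on 1 side of zero and every mouse of the other time on the opposite side. The mean log2 ratio at 4 weeks less that at 2 weeks was -1.60, and this difference was not tested. The list took 127, 606, 61.0 and 526 CPM in cluster 4 and 103, 244, 141 and 693 CPM in cluster 3, against 14115 to 15487 CPM in the authors' Tuft cells.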

How the results depend on the processing

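No paired analysis was possible because the labels give the mice no number that is shared between times. The count of genes called between 2 and 4 weeks, 0 by edgeR, was 6 with DESeq2, 83 with no filter, 1 with each cell thinned to 1500 UMIs, and 2 without the immunoglobulin-rich cell and 2 without hormone-bearing cells, the last pair of settings chosen after seeing the data. It stayed at 0 with only cells of at least 5000 UMIs, also chosen after seeing the data. It was 0 too with the robust option off, with only cells of at least 2 EYFP UMIs, and with enzymes left out of the library size. Leaving out 1 mouse gave 0 to 220, with the lone mouse of a group assumed to vary like the others. The count for the interaction with cluster 3, also 0, was 29 with no filter and 8 to 73 with 1 mouse left out. With enzymes left out of the total, the enzyme ratio was -3.07 beside Acinar and -2.03 beside cluster 3, since the total itself shrinks most in the class richest in enzymes. Under the same setting the endoplasmic reticulum folding list reversed to -0.37 beside Acinar and -0.075 beside cluster 3. C1qa reversed to -0.26 over time with thinned cells. The cause of the other changes was not tested. Of the ratios of enzymes and mucous neck genes beside the 3 classes, 58 values under the alternatives lay within 1 SD between mice of the main value. The other 2 moved by more. That SD was as wide as 1.30 on the log2 scale, for mucous neck genes beside Acinar. The share of typed cells differed by 2.11 to 8.13 percentage points with 1 mouse left out. Cluster 4 was shallow at 4 weeks, which limits the precision of low genes.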
